A study of Mus musculus with 4 samples.

Results

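The genes described here are the detoxification enzymes of 6 families, taken from the deposited gene table by symbol, together with the transcription factor NRF2, its inhibitor and a set of its known targets. The families are the UDP-glucuronosyltransferases (UGT), the aldo-keto reductases of family AKR1, the cytosolic glutathione S-transferases (GST), their microsomal counterparts (MGST), the aldehyde dehydrogenases (ALDH) and the sulfotransferases (SULT). The rule gave 108 genes of the 23361 in the table, of which 11 were listed by symbol: Nfe2l2, which encodes NRF2, and Keap1, Nqo1, Hmox1, Gclc, Gclm, Gsr, Txnrd1, Srxn1, Fth1 and Ftl1. The rule used names only and no measured value, but it was chosen with earlier results of these data known. Shares of the members set beside those of all tested genes are therefore descriptive.

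Detoxification is classically described in steps. Enzymes such as the aldo-keto reductases and aldehyde dehydrogenases reduce or oxidise reactive carbonyls, and transferases then attach glucuronic acid, glutathione or sulfate so that the product can be exported. NRF2 is held by KEAP1 and degraded in unstressed cells. Under electrophilic or oxidative stress it accumulates, enters the nucleus with a small MAF partner and binds antioxidant response elements near genes for glutathione synthesis, quinone reduction, thioredoxin reduction and iron storage.

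RNA was sequenced from cultured mammary tumour cells of the Chaos3 mouse, strain C3HeB/FeJ. The libraries labelled High were 2, from the add-back clones AB-C1 and AB-C2 (1 library per clone), which had been transduced with a lentiviral vector for Arid1a, a subunit of the BAF chromatin remodelling complex. The libraries labelled Low were 2, duplicates of the parental line 23116 MT, which has low Arid1a. No group with an empty vector is among the samples, so transduction, cloning and the transgene cannot be told apart, and the table does not say which clone each High library came from. The libraries held 16523077 and 24307249 fragments (High) and 13889856 and 28110812 fragments (Low). Arid1a itself was at 49.8 and 58.3 CPM (fragments over TMM-scaled library totals) in the libraries labelled High, against 82.2 and 94.2 CPM in those labelled Low. The counted gene therefore went against the labels, without passing the test (log2 fold change -0.71 ± 0.23 (SE), adjusted p = 0.165, edgeR quasi-likelihood test). Whether the vector's transcript was counted is not known, so the directions below belong to the labels and not to a measured level of Arid1a. The summed level of 5 luminal epithelial markers was 807 and 2153 CPM (High) against 1429 and 1044 CPM (Low), and that of 4 basal markers was 1300 and 2679 CPM (High) against 2296 and 1768 CPM (Low). The basal sum joins genes of opposite direction: smooth-muscle actin Acta2 was called lower, at 22.7 and 8.63 CPM (High) against 1320 and 1153 CPM (Low; adjusted p = 0.00976, edgeR), while Krt14 and Trp63 lay above in both High libraries without being called (adjusted p = 0.192 and 0.0975). The 4 fibroblast markers summed to 662 and 64.3 CPM (High) against 4574 and 4070 CPM (Low), with 2 of the 4 below and 1 above in both High libraries. Hepatocyte markers summed to at most 0.0814 CPM in any library, with Ttr and Serpina1c at 0. In bulk RNA, a change in the number of cells of a type and a change in RNA per cell cannot be told apart, and the part of the fibroblast, basal and clone differences in the results below was not tested.

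Of the 108 genes, 54 had enough fragments to be tested and 54 did not. Of those not tested, 35 had no fragment in any library and 19 had at least 1, with a highest count of 77 fragments in a single library. The tested share ran from 1 of 18 sulfotransferases and 5 of 21 UGT genes to 14 of 20 aldehyde dehydrogenases, 12 of 19 GST genes, 8 of 16 AKR1 genes, 3 of 3 MGST genes and 11 of 11 NRF2 genes. Together the 108 genes took 0.556% and 0.722% of all fragments in the High libraries, against 0.435% and 0.366% in the Low libraries. The ferritin genes Fth1 and Ftl1 alone held 0.293% and 0.381% (High) against 0.186% and 0.142% (Low). Per transcript length, in the authors' FPKM (fragments scaled by transcript length and depth), the highest mean levels over the 4 libraries were 2111 for Fth1, 1169 for Ftl1 and 307 for Akr1a1. Next came Gsta4 at 154, Aldh2 at 147, Gsto1 at 142 and Txnrd1 at 100.06 FPKM. These 7 genes exceeded 100 FPKM on average, 29 exceeded 10 FPKM and 59 stayed under 1 FPKM.

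In the libraries labelled High, 7 of the 54 tested genes rose and 0 fell. The genes that rose were the glucuronosyltransferases Ugt1a6a, Ugt1a6b and Ugt1a9, the reductases Akr1c18 and Akr1b3, the valine-degrading dehydrogenase Aldh6a1 and the ferritin heavy chain Fth1. The 7 are 13% of the tested members. All 7 calls were lost without either Low library, where 0 genes of the whole table were called, and the count was 18 without High library 1 and 17 without High library 2. Over the whole table, those last settings called 2193 and 2475 genes, against 321 with all libraries. Over all 12987 tested genes, 1.14% were called higher and 1.33% lower (edgeR quasi-likelihood test, Benjamini-Hochberg adjusted p under 0.05). At an unadjusted p under 0.05, 16 members were higher (9.92% of all tested genes) and 1 lower (8.16% of all tested genes). The 1 lower, Aldh1l1, had under 10 fragments in each High library and entered the test only through the Low libraries. DESeq2 called 13 members higher (4.7% of all tested genes) and 0 lower (4.04% of all tested genes). The call of Akr1b3, and the split among the Ugt1a genes, rest on fragments shared with near-identical genes and are described below. Of the 7, 3 had under 10 fragments in each Low library (Akr1b3, Ugt1a6b and Ugt1a9) and so entered the test only through the High libraries, so the 7 are not a sample of all 108 genes.

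Levels in both High libraries lay above both Low libraries for 24 of the 54 tested members (44.4%; 25.9% of all tested genes), below them for 6 (11.1%; 25.1% of all tested genes), and overlapped for 24. The median log2 fold change was 0.37 over the tested members and 0.03 over all tested genes. By family, as a description of the tested members only, the median was 3.79 for the UGT genes, 0.99 for MGST, 0.50 for GST, 0.28 for ALDH, 0.24 for AKR1 and 0.04 for the NRF2 genes. The only tested sulfotransferase was at 2.71. The UGT median rests on 5 of 21 genes, 4 of which share exons, and is the value of Ugt1a7c, which was not called. Ugt1a7c had 16 and 3 fragments in the Low libraries, and would not have entered the test without the High libraries. Ugt1a6b, Ugt1a9, Akr1b3 and Gstt2 had under 10 fragments in each Low library and entered these medians only through the High libraries. Gsta1, also under 10 in each Low library, entered through High library 2 and Low library 1, with 177 and 7 fragments.

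**Figure D1:**
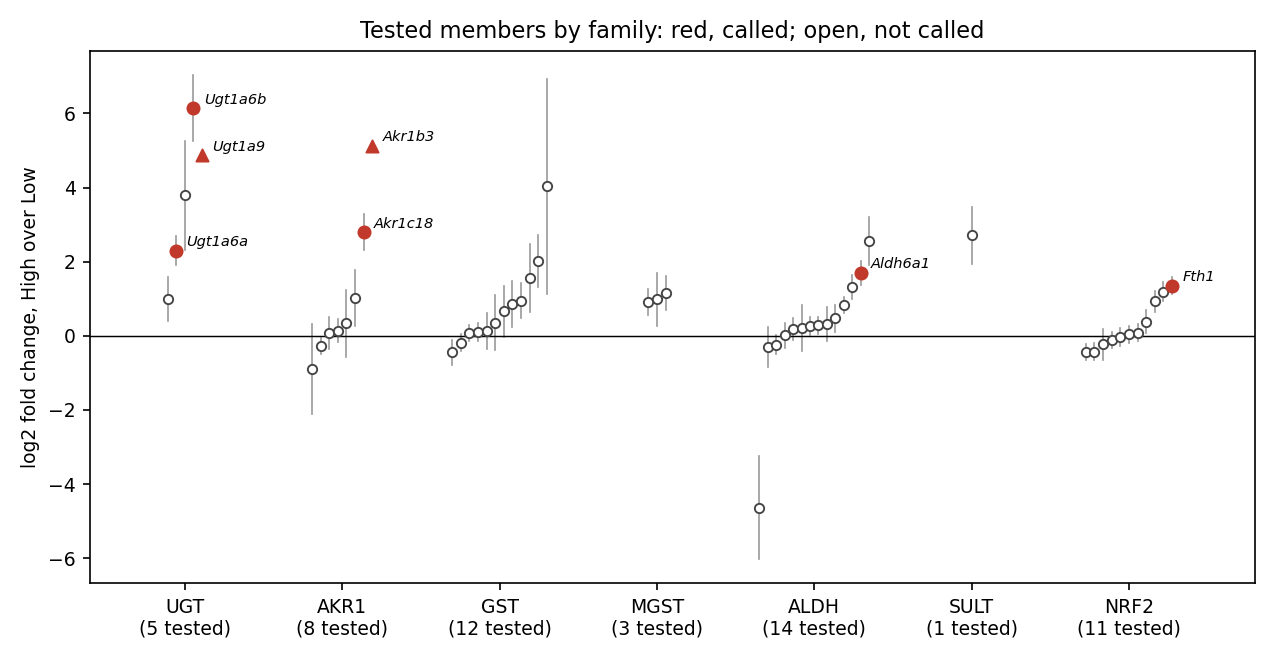
Log2 fold change of each tested member, High over Low (vertical axis), by family. Circles are fitted values with bars of 1 SE, triangles are lower bounds for genes with no fragment in either Low library, and filled red marks the 7 genes called. The tested UGT genes have a median of 3.79 and the NRF2 genes a median of 0.04. The UGT median is the value of Ugt1a7c, which would not have been tested without the High libraries.

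The Ugt1a genes lie in 1 locus on chromosome 1, where each gene has its own first exon and the others are shared. Glucuronosyltransferases of this locus attach glucuronic acid to phenols, bilirubin and many drugs. In the GENCODE M21 annotation of mm10, 4 exon blocks with 1311 bases are common to all 8 Ugt1a genes of the table, so a fragment from these exons cannot be given to a single gene. Ugt1a6a (gene at 88134809 to 88218997, plus strand) and Ugt1a6b (88103252 to 88219003, plus strand) are close copies in their own first exons too. Their coding sequences of 1593 bases each differ at 26 positions and are 98.37% identical, with the last difference at position 819. Coding positions 271 to 360 of both genes, and of Ugt1a7c (88095062 to 88220002, plus strand), are given because they fall in the part that tells the genes apart (mm10 reference). Capitals mark bases that differ between Ugt1a6a and Ugt1a6b (13 of 90). In Ugt1a7c they mark bases that differ from Ugt1a6a at the same coding position, compared without alignment or gaps (65 of 90).
Ugt1a6a: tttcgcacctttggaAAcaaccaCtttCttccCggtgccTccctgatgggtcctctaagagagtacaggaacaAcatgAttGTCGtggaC
Ugt1a6b: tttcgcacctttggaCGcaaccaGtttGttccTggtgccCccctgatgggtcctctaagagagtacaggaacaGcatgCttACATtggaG
Ugt1a7c: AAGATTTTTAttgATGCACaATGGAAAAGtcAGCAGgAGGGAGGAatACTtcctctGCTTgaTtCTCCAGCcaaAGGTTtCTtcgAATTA

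Because of this sharing, the fragments of all 8 genes were also summed. The locus sum was 739 and 648 fragments in the High libraries, against 52 and 109 in the Low libraries. That is 43.2 and 26.4 CPM (High) and 3.82 and 3.99 CPM (Low), or 34.8 ± 11.9 against 3.90 ± 0.119 CPM (SD, n = 2 each). The groups did not overlap and the sum rose 8.88-fold in the libraries labelled High (log2 fold change 3.15 ± 0.36 (SE), adjusted p = 0.00756, edgeR). This call does not depend on how fragments were divided among the genes. It was lost without either Low library (adjusted p = 0.466 without Low library 1 and 0.485 without Low library 2), where no gene in the table was called.

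Within the sum, Ugt1a6a, whose product glucuronidates small planar phenols, was at 18.0 and 13.4 CPM (High) against 2.64 and 3.70 CPM (Low), a rise of 2.30 ± 0.40 on the log2 scale (SE; adjusted p = 0.0323). Its near copy Ugt1a6b was at 8.35 and 8.47 CPM (High) against 0 and 0.183 CPM (Low), which passed as well (log2 fold change 6.15 ± 0.88, adjusted p = 0.0170), though its 5 Low fragments all came from Low library 2. Ugt1a9 (88070800 to 88218997) was at 2.45 and 1.95 CPM (High) and listed at 0 in both Low libraries, at least 29.5-fold higher against a floor of 3 fragments over the Low group (adjusted p = 0.0347). All 3 had non-overlapping groups, but their estimates were fractional and depend on the authors' division of shared fragments. The same holds for the estimates of Ugt1a7c, and so for its differences between libraries. The High libraries differed in Ugt1a7c, at 14.3 and 2.20 CPM, against 1.18 and 0.110 CPM in the Low libraries (adjusted p = 0.284 between groups). Of the summed fragments, Ugt1a6a was given 41.9% and 50.8% (High) against 68.3% and 92.7% (Low), and Ugt1a7c 33.2% and 8.37% (High) against 31.7% and 2.91% (Low). Ugt1a10 and Ugt1a5 had 6 and 3 fragments, in High library 2 only, and Ugt1a1 and Ugt1a2 had under 1 fragment in every library. Outside the locus, the only UGT tested was Ugt8a, which makes galactosylceramide, a myelin lipid, at 7.30 and 3.09 CPM (High) against 2.79 and 2.41 CPM (Low; adjusted p = 0.429).

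**Figure D2:**
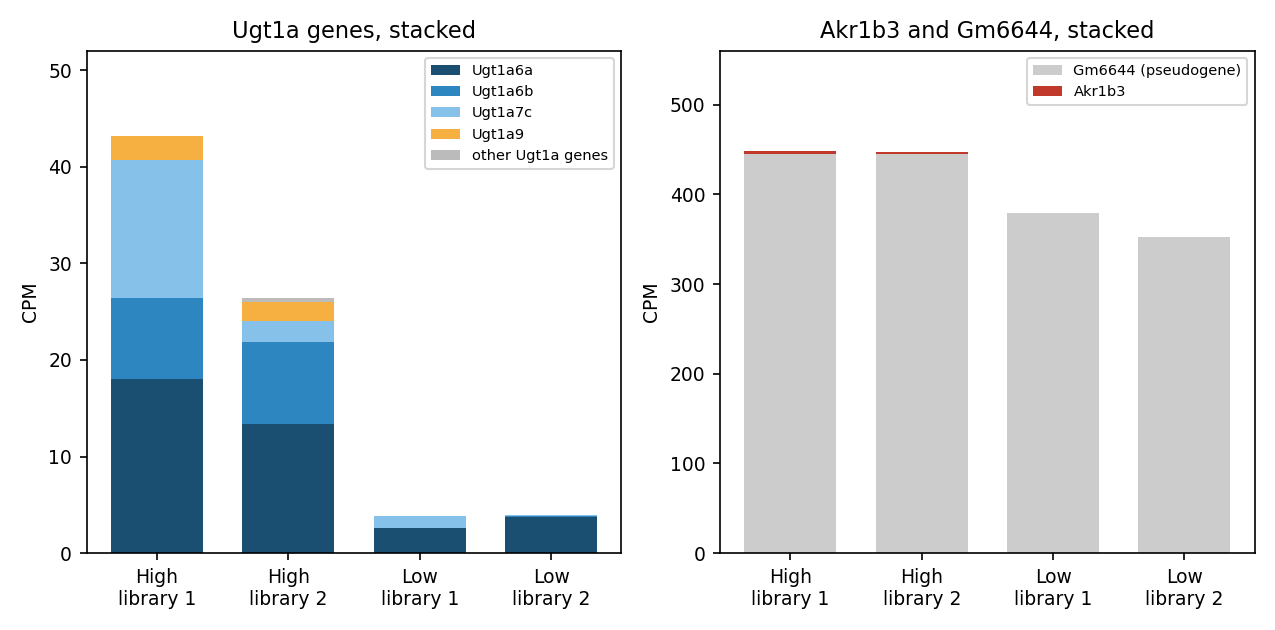
Stacked CPM per library (vertical axes, from 0) of the Ugt1a genes (left) and of Akr1b3 with the processed pseudogene Gm6644 (right). The Ugt1a bars are 43.2 and 26.4 CPM in the High libraries against 3.82 and 3.99 CPM in the Low libraries, and Akr1b3 is a thin layer on a pseudogene bar of 352 to 445 CPM.

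Among the aldo-keto reductases, Akr1c18 (chromosome 13, 4132615 to 4150654, minus strand), which inactivates progesterone in the mouse, was at 12.2 and 7.57 CPM (High) against 1.47 and 1.35 CPM (Low). The groups were well apart, and the gene rose 6.97-fold (log2 fold change 2.80 ± 0.50 (SE), adjusted p = 0.0340). The abundant aldehyde reductase Akr1a1 was at 327 and 355 CPM (High) against 436 and 385 CPM (Low), a non-overlapping but uncalled difference (adjusted p = 0.564). Akr1b10, Akr1b8, Akr1c13, Akr1c14 and Akr1e1 did not pass either. Of the 9 Akr1c genes, 6 had no fragment in any library.

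Akr1b3 encodes aldose reductase (chromosome 6, 34302434 to 34317478, minus strand). It was at 3.10 and 2.20 CPM in the High libraries and listed at 0 in both Low libraries, at least 35.0-fold higher against the same floor (adjusted p = 0.0301). The processed pseudogene Gm6644 (chromosome 1, 55444074 to 55445024, minus strand) carries nearly the same sequence: 948 of its 951 aligned bases are those of Akr1b3 (99.68%). The pseudogene was given 7615 and 10931 fragments (High) against 5160 and 9620 (Low), and Akr1b3 was given 0.692% and 0.493% of their sum (High) against 0.000128% and 6.33e-05% (Low). The Akr1b3 transcript compared is longer, at 1387 bases, and 56.2% of its 50-base stretches occur in Gm6644. Within the aligned part, a stretch of 90 bases from each shows how little separates them, with the single differing base in capitals (mm10 reference).
Akr1b3: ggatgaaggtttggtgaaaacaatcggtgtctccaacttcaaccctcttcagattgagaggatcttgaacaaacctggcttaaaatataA
Gm6644: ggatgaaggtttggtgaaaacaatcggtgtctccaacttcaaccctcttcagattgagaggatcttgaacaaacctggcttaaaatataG
Summed, Akr1b3 and Gm6644 were at 448 and 447 CPM (High) against 379 and 352 CPM (Low). That sum was not called (log2 fold change 0.29 ± 0.21 (SE), adjusted p = 0.517). The call of Akr1b3 therefore ended when the near-identical copy was added, and its level is uncertain in all 4 libraries.

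Of the NRF2 genes, 1 of 11 rose and 0 fell (edgeR; 1.14% and 1.33% of all tested genes), with 3 higher and 0 lower at an unadjusted p under 0.05 (9.92% and 8.16% of all tested genes). Nfe2l2 itself (chromosome 2) was at 79.6 and 69.9 CPM (High) against 69.2 and 76.6 CPM (Low), with overlapping groups (log2 fold change 0.04 ± 0.22 (SE), adjusted p = 0.953). Its inhibitor Keap1 was at 54.2 and 61.1 CPM (High) against 58.8 and 50.7 CPM (Low; adjusted p = 0.902). Neither gene separated the groups, which concerns RNA only, since NRF2 is regulated largely through protein stability.

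The iron-storage gene Fth1, the ferritin heavy chain with ferroxidase activity (chromosome 19, 9980598 to 9985098, plus strand), was at 2010 and 2539 CPM (High) against 929 and 849 CPM (Low). It rose 2.56-fold (log2 fold change 1.35 ± 0.24 (SE), adjusted p = 0.0316). The ferritin light chain Ftl1 overlapped between groups, at 817 and 1236 CPM (High) against 970 and 610 CPM (Low; adjusted p = 0.577). Of the 50-base stretches in Ftl1 transcripts, 50.9% also occur in other genes, mostly a pseudogene, against 1.59% for Fth1.

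Hmox1, the inducible heme oxygenase, was at 70.3 and 52.8 CPM (High) against 27.5 and 26.3 CPM (Low), just outside the threshold (log2 fold change 1.19 ± 0.25 (SE), adjusted p = 0.0595). It passed in 5 of 17 alternative settings, DESeq2 among them. Nqo1, the quinone reductase often used as a readout of NRF2, was at 28.6 and 24.7 CPM (High) against 12.9 and 15.0 CPM (Low; log2 fold change 0.94 ± 0.28, adjusted p = 0.148). Both genes had non-overlapping groups with the High libraries above.

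The genes of glutathione and thioredoxin supply did not share that direction. Txnrd1, cytosolic thioredoxin reductase, was at 259 and 285 CPM (High) against 375 and 363 CPM (Low; adjusted p = 0.340). Srxn1, sulfiredoxin, was at 49.8 and 60.9 CPM (High) against 69.9 and 79.0 CPM (Low; adjusted p = 0.387). Both lay below the Low libraries without being called.

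The subunits of the rate-limiting enzyme of glutathione synthesis overlapped between groups. Gclc was at 65.0 and 71.4 CPM (High) against 69.6 and 77.5 CPM (Low), and Gclm at 65.0 and 58.4 CPM (High) against 56.0 and 69.8 CPM (Low), with adjusted p of 0.840 and 0.964. Glutathione reductase, Gsr, was at 102 and 243 CPM (High) against 220 and 184 CPM (Low; adjusted p = 0.825), so the High libraries lay on either side of the Low pair.

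**Figure D3:**
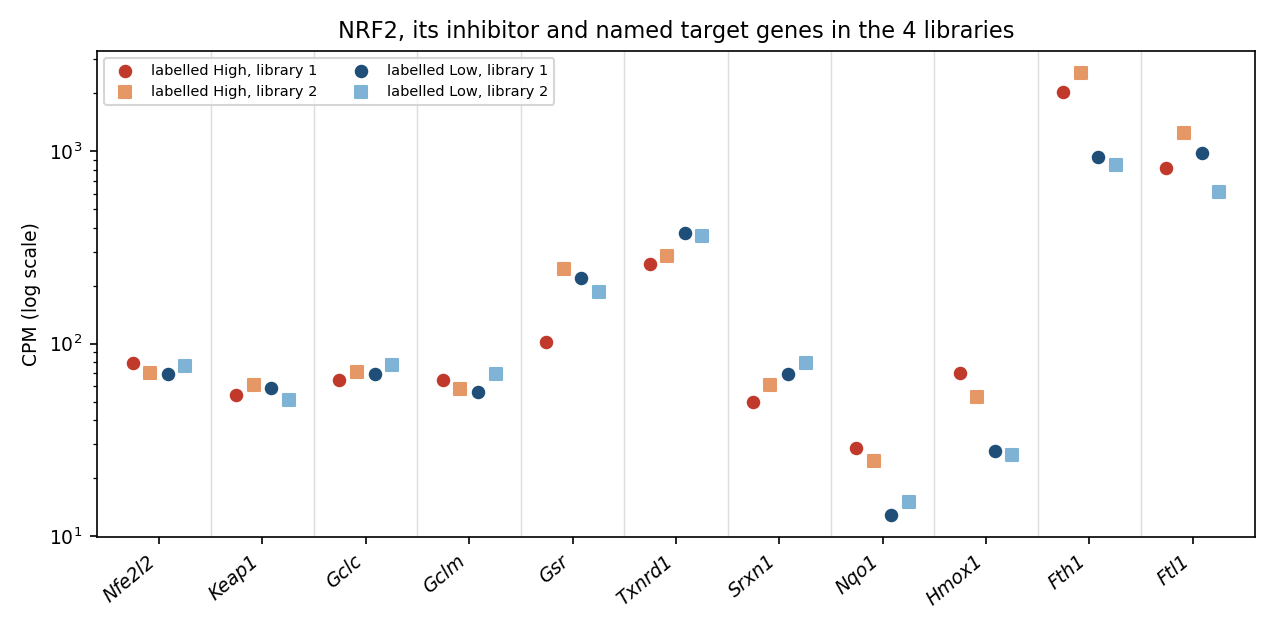
CPM (vertical axis, log scale) of Nfe2l2, its inhibitor Keap1 and 9 target genes in each library, 1 point per library. Fth1, Hmox1 and Nqo1 have both High libraries above both Low libraries, Txnrd1 and Srxn1 have both below, and the other genes overlap.

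The core of the antioxidant response element, searched as TGACNNNGC on both strands in the RefSeq promoter windows (250 bases before to 50 after each start, GRCm38.p6), was found in 12.39% of all windows and in 13.99% of genes with a window. Among the tested members with a window it was found in 7 of 42 genes, and among the 5 called members with a window in 0. Of the NRF2 genes, 4 of 8 with a window carried it. Their sites are given as the letters behind that count, read on the gene's strand, with the match in capitals. They lie at chr3:122245412-122245442 (Gclm, plus strand), chr2:75704884-75704913 (Nfe2l2, minus strand), chr2:152105541-152105571 (Srxn1, plus strand) and chr10:82859103-82859133 (Txnrd1, plus strand).
Gclm: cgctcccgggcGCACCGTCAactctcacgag
Nfe2l2: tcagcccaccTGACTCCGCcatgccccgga
Srxn1: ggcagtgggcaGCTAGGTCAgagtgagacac
Txnrd1: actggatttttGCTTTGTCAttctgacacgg
None of these 4 genes was called. A match in this window is not a measured binding site, and distal elements lie outside it.

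Among the aldehyde dehydrogenases, 1 of 14 tested rose and 0 fell (edgeR; 1.14% and 1.33% of all tested genes), with 4 higher and 1 lower at an unadjusted p under 0.05 (9.92% and 8.16% of all tested genes). The 1 lower was Aldh1l1, which entered the test only through the Low libraries. Aldh6a1 (chromosome 12, 84430717 to 84451004, minus strand), the mitochondrial enzyme that degrades methylmalonate semialdehyde from valine, was at 26.8 and 25.3 CPM (High) against 6.54 and 9.40 CPM (Low). It rose 3.26-fold (log2 fold change 1.70 ± 0.32 (SE), adjusted p = 0.0421). It held in 10 of 17 alternative settings and was the called member nearest to the threshold.

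Aldh2, the mitochondrial acetaldehyde dehydrogenase, was at 325 and 526 CPM (High) against 203 and 140 CPM (Low; log2 fold change 1.31 ± 0.32 (SE), adjusted p = 0.0861). Aldh3a1, which oxidises aromatic and lipid-derived aldehydes, was at 112 and 360 CPM (High) against 47.8 and 32.5 CPM (Low; log2 fold change 2.56 ± 0.65, adjusted p = 0.165). Aldh3a2, the fatty aldehyde dehydrogenase, was at 96.2 and 90.4 CPM (High) against 49.1 and 55.4 CPM (Low; adjusted p = 0.1006). All 3 had non-overlapping groups and were called by DESeq2 but not by edgeR at the filter used. Aldh18a1, the enzyme that starts proline synthesis, was at 105 and 147 CPM (High) against 112 and 97.9 CPM (Low; adjusted p = 0.612). Aldh1l1, a cytosolic folate enzyme, had 1 fragment over both High libraries and 30 over both Low libraries, a ratio of 30.5 (95% counting interval 5.08 to 1246, Low over High; adjusted p = 0.140). It was tested only because the Low libraries passed the filter.

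No glutathione transferase passed the test between groups: 0 of 12 GST genes and 0 of 3 MGST genes (edgeR). At an unadjusted p under 0.05, 1 and 2 of them were higher (9.92% of all tested genes). DESeq2 called 0 of them higher (4.7% of all tested genes) and 0 lower. Both High libraries lay above both Low libraries for 4 of the 12 GST genes, below for 2, and overlapped for 6, and lay above for 3 of 3 MGST genes (25.9% and 25.1% of all tested genes lay above and below). The 4 GST genes were Gsto2 and the theta-class genes Gstt1, Gstt2 and Gstt3. Gstt1 was at 4.03 and 6.47 CPM (High) against 1.98 and 0.659 CPM (Low; adjusted p = 0.191). Mgst1, a membrane-bound peroxidase and transferase, was at 23.1 and 42.4 CPM (High) against 18.8 and 15.9 CPM (Low; adjusted p = 0.229). Mgst3 was at 8.0 and 16.5 CPM (High) against 5.51 and 5.52 CPM (Low; adjusted p = 0.238), and Mgst2 at 1.69 and 2.81 CPM (High) against 1.54 and 0.768 CPM (Low; adjusted p = 0.515).

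The abundant transferases overlapped between the groups. Gsto1, an omega-class dehydroascorbate reductase, was at 146 and 138 CPM (High) against 144 and 124 CPM (Low; adjusted p = 0.880). Gstp1, the pi-class enzyme, was at 50.2 and 60.9 CPM (High) against 58.7 and 45.3 CPM (Low; adjusted p = 0.883), and 33.7% of its 50-base stretches are shared with Gstp2. The mu-class gene Gstm2 was at 3.50 and 1.14 CPM (High) against 2.13 and 1.5 CPM (Low; adjusted p = 0.847), with overlapping groups. Gstm1 and Gstm5, of the same class, lay below in both High libraries, with log2 fold changes of -0.44 and -0.18 that did not pass (adjusted p = 0.539 and 0.738).

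Of the 18 sulfotransferases, 14 had no fragment in any library. Sult2b1, the cholesterol sulfotransferase, was at 3.10 and 11.4 CPM (High) against 0.735 and 1.43 CPM (Low), a non-overlapping difference that did not pass (log2 fold change 2.71 ± 0.76 (SE), adjusted p = 0.129). Sult4a1 and Sult6b1 stayed under the filter, at 8 and 8 fragments (High) against 1 and 6 (Low) for Sult4a1 and 16 and 3 (High) against 2 and 13 (Low) for Sult6b1.

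**Figure D4:**
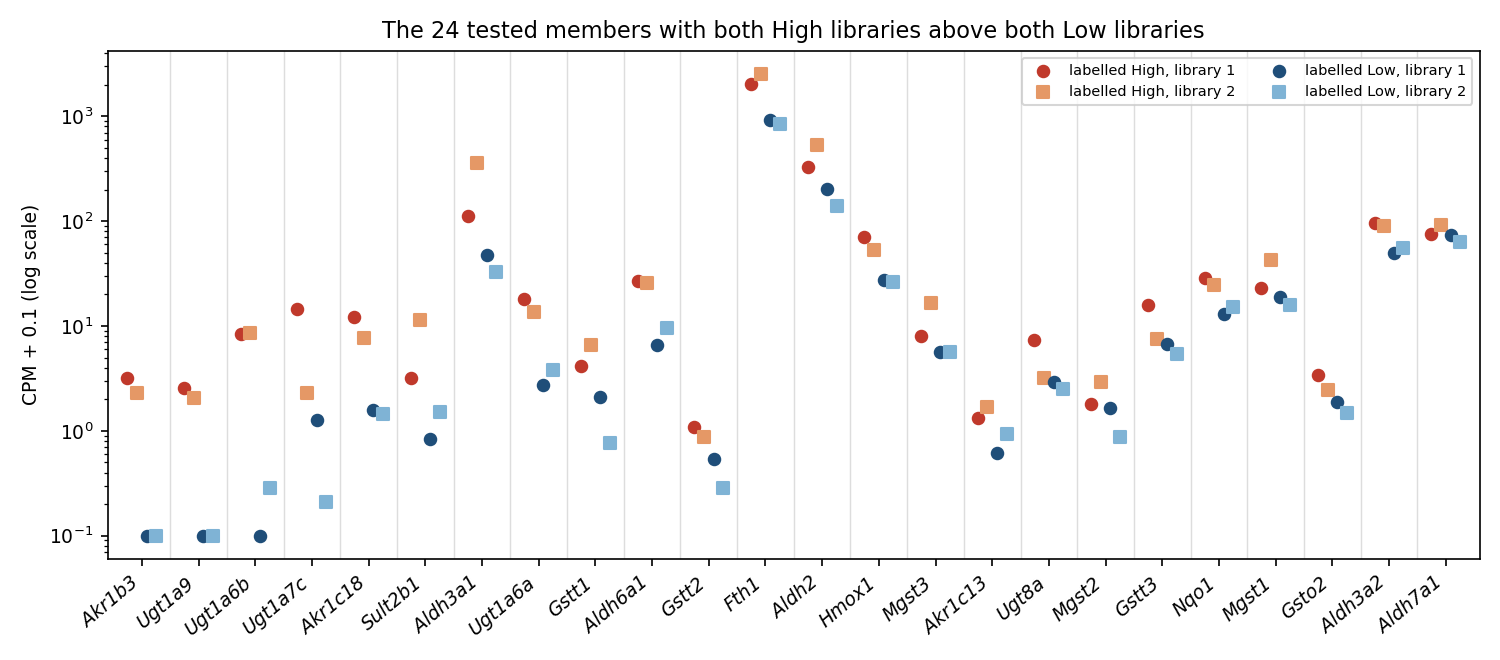
CPM + 0.1 (vertical axis, log scale) of the 24 tested members whose High libraries both lie above both Low libraries, 1 point per library, ordered by fitted log2 fold change. Of these 24 genes 7 were called, and points on the 0.1 line are libraries with no fragment.

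The High libraries, labelled as different clones, also differed from each other in these genes. In a fit that gave each High library a group of its own and took the spread from the Low pair, 4 of 54 members were higher in High library 1 than in High library 2 (7.41%; 6.47% of all tested genes) and 6 were lower (11.1%; 4.46% of all tested genes). The higher were Akr1c14, Ugt1a7c, Aldh1l2 and Aldh1a3, and the lower were Gsr, Akr1b8, Aldh3a1, Sult2b1, Gsta4 and Gsta1. The median absolute log2 difference between the High libraries was 0.49 over the members and 0.39 over all tested genes. None of the 7 genes called between the High and Low groups was also called between the High libraries. The tests are linked, since spread between the High libraries enters the test between groups and works against a call there. No conclusion is drawn from this lack of overlap.

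Gsta4, which conjugates the lipid peroxidation product hydroxynonenal, was at 60.5 CPM in High library 1 and 227 CPM in High library 2, a log2 difference of -1.91 ± 0.36 (SE; adjusted p = 3.52e-06). The Low libraries, at 99.1 and 83.6 CPM, lay between them. Gsta1 was at 0 CPM in High library 1 and 7.21 CPM in High library 2, at least 41.1-fold lower in High library 1 against a floor of 3 fragments there (adjusted p = 1.21e-08). The Low libraries were at 0.514 and 0 CPM, and 90.5% of the 50-base stretches of Gsta1 occur in other genes, so its level is uncertain. The gene sharing most of them, Gm3776, had 0 and 46 fragments (High) against 0 and 0 (Low). Aldh3a1 was 3.21-fold lower in High library 1 (adjusted p = 5.91e-05), Gsr 2.39-fold lower (adjusted p = 0.00556) and Sult2b1 3.66-fold lower (adjusted p = 0.00981).

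In the other direction, Ugt1a7c was 6.49-fold higher in High library 1 (log2 difference 2.70 ± 0.56 (SE), adjusted p = 5.42e-05), while the Ugt1a sum was not called between the High libraries (log2 difference 0.71 ± 0.39, adjusted p = 0.280). Aldh1a3, which makes retinoic acid, was at 80.1 CPM in High library 1 and 38.3 CPM in High library 2 (adjusted p = 0.0260), against 45.0 and 39.9 CPM in the Low libraries. Aldh1l2, a mitochondrial folate enzyme, was at 45.9 CPM in High library 1 and 15.1 CPM in High library 2 (adjusted p = 0.000529). Akr1c14, a steroid dehydrogenase, was 20.1-fold higher in High library 1 by the ratio of its few fragments (95% counting interval 5.07 to 174, adjusted p = 0.00753). Set against the Low pair alone, High library 1 had 18 members called higher and 1 lower, and High library 2 had 18 higher and 3 lower. Over all tested genes the shares were 10.7% higher and 8.19% lower for High library 1, and 9.16% higher and 8.15% lower for High library 2. Both comparisons share the Low libraries.

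**Figure D5:**
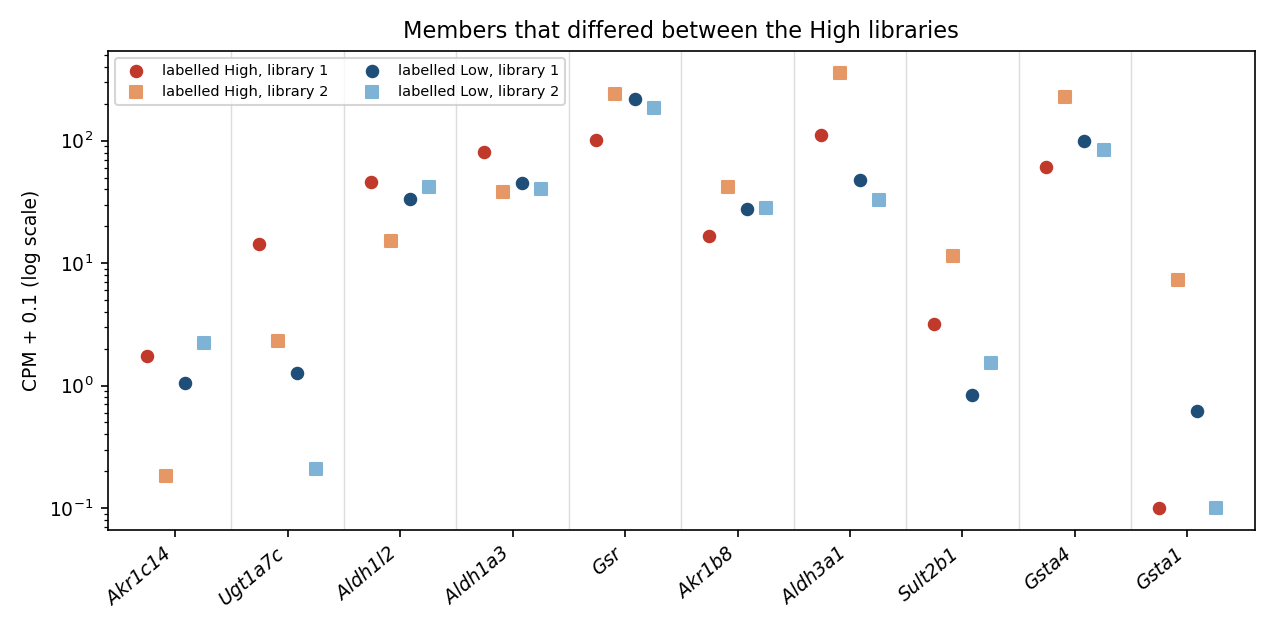
CPM + 0.1 (vertical axis, log scale) of the 10 members called between the High libraries, 1 point per library. Gsta4, Gsr, Akr1b8, Aldh1a3 and Aldh1l2 have the Low libraries between the High libraries, Aldh3a1, Sult2b1 and Ugt1a7c have both High libraries above both Low libraries, and Akr1c14 and Gsta1 have neither order.

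Around these enzymes, 155 genes of connected pathways were listed, of which 79 were tested. By edgeR 0 were called higher and 2 lower (1.14% and 1.33% of all tested genes), both of the retinoid list. At an unadjusted p under 0.05, 8 were higher and 6 lower (9.92% and 8.16% of all tested genes). DESeq2 called 3 higher and 3 lower (4.7% and 4.04% of all tested genes). Crabp1, a retinoic acid binding protein (chromosome 9), fell to 0.584 and 2.48 CPM (High), against 29.3 and 25.2 CPM (Low; log2 fold change -4.11 ± 0.67 (SE), adjusted p = 0.0421). Rarb, a retinoic acid receptor that is itself induced by retinoic acid (chromosome 14), fell to 2.45 and 0.855 CPM (High), against 15.2 and 16.2 CPM (Low; log2 fold change -3.26 ± 0.56, adjusted p = 0.0314). Without High library 1 the log2 fold changes were -3.45 (Crabp1) and -4.19 (Rarb), without High library 2 they were -5.53 and -2.68, and both calls were lost without either Low library. Between the High libraries, 3 of the 11 retinoid genes were called higher in High library 1 and 3 lower, among 12 higher and 4 lower of the 79 tested pathway genes (6.47% and 4.46% of all tested genes). Cyp26b1, which degrades retinoic acid, was at 233 CPM in High library 1 and 43.4 CPM in High library 2, against 50.7 and 45.6 CPM (Low). Stra6, a retinol transporter, was at 35.5 CPM in High library 1 and 426 CPM in High library 2, against 162 and 130 CPM (Low).

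Of 9 NRF2 partners and regulators, 22 tested genes of the glutathione and thioredoxin systems, 6 of NADPH supply and 11 other NRF2 targets, 0 were called between the groups (edgeR). At an unadjusted p under 0.05, 1, 0, 2 and 1 of them were higher and 0, 2, 0 and 0 lower (9.92% and 8.16% of all tested genes). The cystine carrier Slc7a11 was at 23.0 and 20.6 CPM (High) against 34.6 and 45.8 CPM (Low; adjusted p = 0.148), and the peroxiredoxin Prdx6 was at 120 and 143 CPM (High) against 272 and 246 CPM (Low; adjusted p = 0.0738). Of 6 tested iron genes beside ferritin, 0 were called (edgeR). Only Slc11a2 was lower at an unadjusted p under 0.05 (8.16% of all tested genes). It was at 44.1 and 53.0 CPM (High) against 84.2 and 72.7 CPM (Low; adjusted p = 0.184). The transferrin receptor Tfrc overlapped between groups, at 460 and 435 CPM (High) against 433 and 608 CPM (Low).

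The aryl hydrocarbon receptor is a xenobiotic sensor known to induce Ugt1a6 genes, Nqo1 and Aldh3a1. Of the 6 tested genes of its list, 0 were called by edgeR. At an unadjusted p under 0.05, 3 of the 6 were higher (9.92% of all tested genes). They were Ahr, Cyp1a1 and Tiparp. Cyp1a1 had 5 and 3 fragments in the Low libraries and so entered the test only through the High libraries. Ahr was at 118 and 94.1 CPM (High) against 54.0 and 62.6 CPM (Low; adjusted p = 0.110). Its target Cyp1a1 was at 8.24 and 1.34 CPM (High) against 0.367 and 0.110 CPM (Low; adjusted p = 0.116) and differed between the High libraries (adjusted p = 0.00342). Tiparp was at 46.7 and 50.2 CPM (High) against 29.8 and 33.4 CPM (Low; adjusted p = 0.236). The more abundant target Cyp1b1 lay the other way, at 221 and 135 CPM (High) against 229 and 267 CPM (Low; adjusted p = 0.429). The repressor Ahrr overlapped, at 2.86 and 0.285 CPM (High) against 0.514 and 1.10 CPM (Low; adjusted p = 0.719). Arnt overlapped too, at 89.2 and 48.6 CPM (High) against 65.4 and 75.6 CPM (Low; adjusted p = 0.970). The cytochrome P450 list held 79 genes of families that oxidise foreign compounds and lipids. Cyp1a1, Cyp1a2 and Cyp1b1 were counted in the receptor's list and not in this one. Of the 79 genes, 55 had no fragment in any library and 0 of 8 tested were called (edgeR). At an unadjusted p under 0.05, 1 of the 8 was lower (8.16% of all tested genes). The median log2 fold change was -0.02 over all 79 tested genes of the connected pathways. It was 0.74 over the 6 tested genes of the receptor's list and 0.01 over the 8 tested genes of the cytochrome P450 list.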

How the data were processed

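RNA was measured in 4 libraries, 2 labelled High and 2 labelled Low. Per the submitters' processing notes, cutadapt 1.5, TopHat2 2.0.13 and Cuffdiff 2.2.1 were used, and the build was mm10. The libraries were directional, from 500 ng of total RNA, per the labels' protocols. The gene annotation and the strand setting of the counting are not named in the sources used here. The authors' deposited table holds estimated counts of fragments and FPKM values for each gene in each library, per the file headers. Of the estimated counts, 99.18% were whole within 1e-06, and all were rounded before testing.

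Genes were tested with edgeR's quasi-likelihood test (edgeR 4.0.16, R 4.3.3), two-sided and robust, with TMM normalisation and edgeR's filter (smallest count 10), adjusted by Benjamini-Hochberg over all 12987 tested genes at 0.05. With 2 groups, 2 residual degrees of freedom remained and the biological coefficient of variation was 32.2%. With each High library as its own group, 1 remained and the coefficient was 17.2%, and a single High library is taken to vary as the Low pair does. Alternatives used DESeq2 1.42.0, limma 3.58.1 (voom, and log2(FPKM + 1) or log2(FPKM + 0.1)), other scalings and filters, libraries left out, a replicate block and summed genes. A standard error is the log2 fold change over the root of the F statistic. No label calls the Low duplicates separate cultures, so their spread may be technical. The p-values between groups draw on the spread of the High pair and of the Low pair. With each High library as its own group, they draw on the Low pair alone. No exact permutation test is given, since the smallest p for 2 against 2 libraries is 0.333. A count of 3 fragments was the floor for a gene at 0, and floors and 95% intervals cover counting error only (3 fragments are 0.110 to 0.220 CPM on the TMM scale).

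The 108 members all matched GENCODE M21 by symbol, and promoters came from RefSeq GRCm38.p6. The members and lists were chosen with earlier results of these data known. The genes named are the called members, the 3 with the highest FPKM per family, the 11 NRF2 genes, the 8 that differed most between the High libraries, all Ugt1a genes and the called pathway genes. Others were chosen after their values were seen, among them Aldh3a2, Gstt1, Ugt8a, Cyp1a1, Cyp1b1 and Slc7a11.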

Additional observations from a re-analysis of the deposited data

How the results depend on the processing

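The count of members called higher (7) was 13 with DESeq2, 4 with limma-voom, 4 on log2(FPKM + 1), 8 with the replicate block and 0 to 18 with 1 library left out. It was 18 without High library 1, 17 without High library 2 and 0 without either Low library, settings in which 0 genes of the whole table were called (970 and 800 at an unadjusted p under 0.05). The count lower was 0 in the main test and 0 to 3 with 1 library left out. For the other pathway genes, the count higher (0) was 2 without the filter, 3 with DESeq2, 1 with the replicate block and 0 to 9 with 1 library left out. The count lower (2) was 0 on log2(FPKM + 0.1) and 0 to 12 with 1 library left out. Between the High libraries, DESeq2 called 2 members higher in place of 4. The log2 fold change of the Ugt1a sum was 2.76 to 3.45 with 1 library left out. The library numbers do not pair the samples: the deviations of same-numbered libraries correlated at -0.139, and the sum was at 3.10 (adjusted p = 0.000662) with the replicate block. With the crossed pairing, chosen after seeing the data, 0 members and 0 other pathway genes were called, the whole table gave 94 calls in place of 321, and the sum was at 3.12 (adjusted p = 0.0390). Summing Akr1b3 with Gm6644, also chosen after seeing the data, left 6 members called, and summing the Ugt1a genes left 5. Of the 29 tested and uncalled genes chosen by the rule for named genes, 12 changed sign under some alternative. The stricter filter dropped Ugt1a9. Leaving out a Low library was not run between the High libraries, where no residual degree of freedom would remain. With 2 libraries a group, unequal clones and fragments shared among copies, small differences were not detectable.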
